A study of Drosophila melanogaster with 12 samples.

Results

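Male and female heads of newly eclosed adult Drosophila melanogaster were compared in the control genotype, over all genes that passed a filter on low counts. The comparison used 6 of the 12 libraries of the series, 3 from wild-type males and 3 from wild-type females. Each library was made from 60 pooled heads, so the values average over flies and the spread between libraries is a spread between pools. The control genotype carries the Nab2 allele that the labels write Nab2pex41 and call wild type, and all 6 of these libraries share it. The other 6 libraries, 3 per sex, carry the allele Nab2ex3, called Nab2 null in the labels. They served to set the shared estimate of spread and to repeat the sex comparison in other flies of the same age. Nab2 encodes a zinc finger protein that binds polyadenosine RNA. Total RNA depleted of ribosomal RNA was sequenced from stranded libraries, so noncoding and nonpolyadenylated transcripts were counted beside messenger RNAs.

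In flies, sex is read in each cell from the dose of the X chromosome. Sex-lethal (Sxl), an RNA-binding splicing regulator, is active in females, where it directs the splicing of transformer (tra) and blocks production of the male dosage compensation protein MSL-2. The Tra and Tra2 proteins then set the splicing of doublesex (dsx) and fruitless (fru), which encode transcription factors that differ between the sexes. In males MSL-2, the helicase Maleless (mle) and the noncoding RNAs roX1 and roX2 form a complex that raises transcription along the single X chromosome. In the head, the main tissue known for strong sex bias is the fat body, a layer of adipose tissue around the brain that in females makes yolk proteins under the control of dsx. Gene-level counts do not separate splice forms, so the sex-specific isoforms of Sxl, tra, dsx and fru were not measured here.

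The libraries held between 23656759 and 30751922 counts assigned to genes. Replicates of one sex correlated at 0.990 to 0.995 across genes, and the pairs of replicates all differed by more than counting noise. The first principal component of the 6 libraries held 54.9% of the variance and separated the sexes. The second held 20.6% and set male library 3 apart, at -24.2 against values from -7.32 to 17.4 for the others. The 18 photoreceptor genes of a marker list summed to between 40378 and 45550 CPM (counts relative to the TMM-scaled size of each library), and none of them was absent. Nab2 itself stood at 59.3 ± 2.54 CPM (SD, n = 3) in females and 61.4 ± 2.27 (SD, n = 3) in males, a log2 difference of 0.05 (SE 0.32, edgeR adjusted p 0.960). This SE and adjusted p rest on the spread over all 12 libraries, Nab2 null ones included, and do not measure the wild-type spread alone.

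Transcripts limited to one sex were also found at a low level in the other, unevenly across libraries. The female libraries held 104, 43 and 538 roX1 counts, which is 0.190%, 0.0878% and 1.20% of the mean male level. For roX2 they held 14, 2 and 179 counts, or 0.0851%, 0.0136% and 1.33% of the male level. Female library 3 thus stood above the others for both RNAs. In the male libraries Yp1 was at 0.131%, 1.19% and 0.902% of the mean female level and Yp2 at 0.520%, 1.43% and 1.88%, lowest for both in male library 1. The part of these reads in the results was not tested beyond the values given without single libraries.

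Across the genome 378 of 11223 genes tested (3.37%) differed between the sexes at an edgeR adjusted p under 0.05, 146 higher in males (1.30%) and 232 lower (2.07%). At least 2-fold differences were found for 164 of them (1.46%), 92 higher and 72 lower in males. Called genes higher in males had a median log2 difference of 1.49, and included the roX RNAs, X-linked genes of varied function and a block of autosomal genes named for testis or sperm. Called genes lower in males had a median of -0.68, and included the yolk proteins, larval serum proteins, proteins of small nucleolar ribonucleoprotein particles and y, PPO1 and AttD. The 3 male and 3 female levels did not overlap for 3409 genes (30.4%), and 1946 genes had an unadjusted edgeR p under 0.05. The number of calls depended on single libraries. It was 211, 198 and 149 without female library 1, 2 or 3, 153 and 172 without male library 1 or 2, and 433 without male library 3. It was 848 without Nab2 null female library 1, which entered through the shared spread, the count filter and the scaling, and 11478 genes were then tested. A core of 121 genes (56 higher and 65 lower in males) was called in each of the 6 fits that left out 1 wild-type library. These are called stable below.

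**Figure D1:**
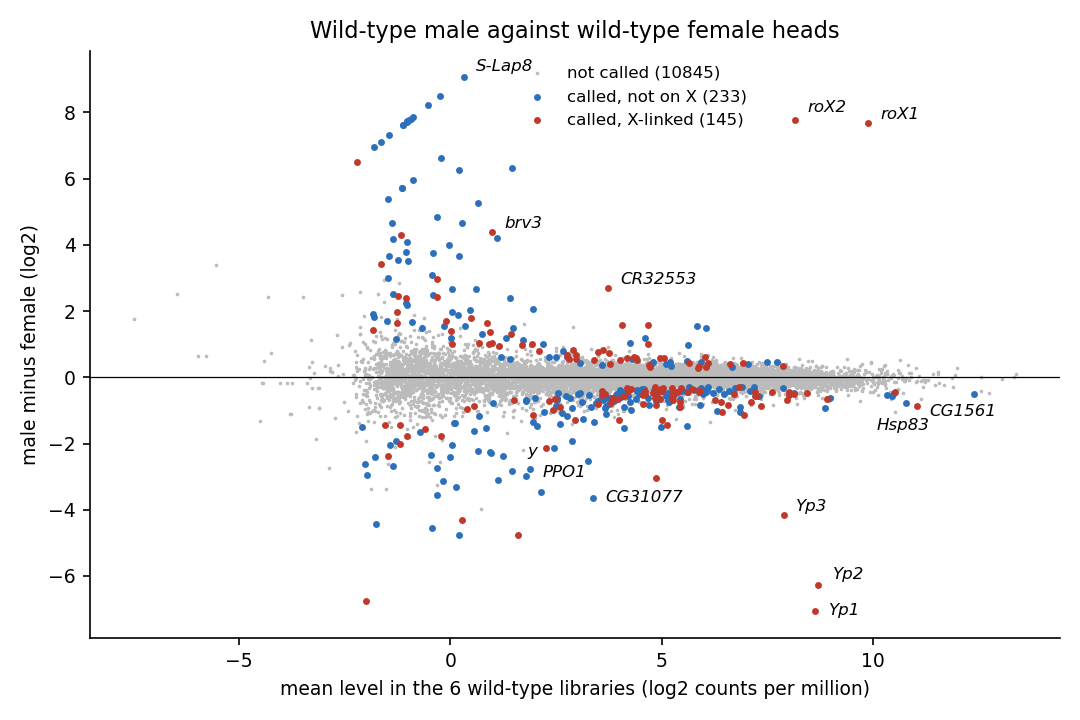
Mean level of each gene tested over the 6 wild-type libraries (log2 CPM, x axis) against the fitted difference of males minus females (log2, y axis). Each point is 1 gene, coloured where it was called at an edgeR adjusted p under 0.05, by location on or off the X chromosome. The roX RNAs and the yolk protein genes are the abundant genes with extreme differences, and the autosomal genes with the highest fitted values have low mean levels. Fitted values of genes with no count in one sex depend on the prior count, and 1 gene with no count in these 6 libraries is not drawn.

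The roX RNAs were the most abundant genes with a strong male bias. Male libraries held 51420, 67167 and 50431 counts of roX1, a gene at chrX:3857230-3862697 (minus strand, assembly BDGP6.54). This gave 1888 ± 187 CPM (SD, n = 3) in males and 9.29 ± 11.6 (SD, n = 3) in females. The log2 difference was 7.68 (SE 0.77, edgeR adjusted p 3.28e-04), and 9.48 without female library 3. For roX2, at chrX:11579065-11580432 (plus strand), the male libraries held 16473, 20103 and 14011 counts, and no female library overlapped them. Its log2 difference was 7.77 (SE 0.85, edgeR adjusted p 5.37e-04), and 10.91 without female library 3. So the size of both differences rested on that one female library, while both calls held without it.

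The protein genes of the dosage compensation machinery differed less than the RNAs. Of 10 genes listed, all were tested, and 3 were higher in males: roX1, roX2 and msl-2. The msl-2 messenger had 492, 409 and 397 counts in females and 612, 768 and 831 in males. The groups did not overlap, and the log2 difference was 0.59 (SE 0.12, edgeR adjusted p 0.0252). The msl-2 call was lost without female library 1, 2 or 3 or male library 2 or 3, with edgeR adjusted p from 0.0638 to 0.0877 and the value from 0.49 to 0.65 over the 6 fits. The remaining genes did not pass, with log2 differences of 0.36 for the acetyltransferase gene mof, 0.36 for the kinase gene JIL-1, 0.21 for mle, 0.20 for msl-3 and -0.01 for msl-1.

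Of 17 sex determination genes listed, 15 were tested and Sxl alone was called, lower in males. Its counts were 10127, 7830 and 8015 in females and 5967, 7836 and 6815 in males, or 329 ± 24.4 and 230 ± 11.5 CPM (SD, n = 3 each). The CPM groups did not overlap, although the raw counts of female library 2 and male library 2 were nearly equal, since the latter was sequenced more deeply. The log2 difference was -0.51 (SE 0.11, edgeR adjusted p 0.0251). The Sxl call was kept without female library 2 but lost without any other single wild-type library, with edgeR adjusted p from 0.0514 to 0.122. Total-count scaling also ended it (edgeR adjusted p 0.0909). Downstream, total transcript levels of tra, tra2, dsx and fru differed by 0.05, -0.16, -0.14 and -0.23 on the log2 scale, none of which passed. For dsx the levels were 43.3 ± 2.79 CPM in females and 39.2 ± 3.76 in males (SD, n = 3), and for fru 76.7 ± 4.18 and 65.3 ± 2.53 (SD, n = 3).

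The 3 yolk protein genes, which encode the egg yolk precursors taken up by oocytes, were the most strongly female-biased abundant genes. Female libraries held 29623, 18737 and 14611 counts of Yp1 and male libraries 28, 302 and 210. Yp1 lies at chrX:10053811-10055498 beside Yp2 at chrX:10050951-10052636, on opposite strands. The log2 difference was -7.06 for Yp1 (SE 0.62, edgeR adjusted p 1.20e-04). Yp2 had 27439, 19718 and 18367 counts in females and 117, 381 and 461 in males, with a log2 difference of -6.29 (SE 0.45, edgeR adjusted p 3.07e-05). Yp3 was the least uniform, with 22431, 8668 and 5768 counts in females and 514, 961 and 776 in males. Its log2 difference of -4.17 (SE 0.45, edgeR adjusted p 5.37e-04) moved to -3.53 without female library 1. An antisense RNA gene within Yp1, CR45601, followed the same direction, with 199, 149 and 120 counts in females and 6, 8 and 5 in males. How strand was set in counting is not given in the sources used here, so the reads of Yp1 and CR45601 cannot be told apart.

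Other genes known for sex bias in the head fat body gave mixed values. Of 12 listed, 11 were tested, 2 were higher and 1 was lower in males. The male-biased gene sxe2, which encodes a lipase-like protein, had 1212, 862 and 714 counts in females and 3041, 3601 and 2070 in males. It rose by 1.48 in males (SE 0.25, edgeR adjusted p 0.0081), a call lost without female library 3 (edgeR adjusted p 0.0504). Cyp4d21, a cytochrome P450 gene also named sxe1, had 1158, 655 and 543 counts in females and 3002, 3371 and 1255 in males. Male library 3 was far below the other male libraries, and the log2 difference of 1.54 (SE 0.38, edgeR adjusted p 0.0489) no longer passed without female library 1, 2 or 3 or male library 1 or 2, with the stricter count filter (edgeR adjusted p 0.0618) or with the wild-type libraries alone (edgeR adjusted p 0.0504). Obp99a, an odorant-binding protein gene, gave -2.39 in males against females (SE 0.54, edgeR adjusted p 0.0338). Female library 1 held 217 of its reads against 76 and 37 in the other females, and without that library the value was -1.55 (edgeR adjusted p 0.0956). The Obp99a call was also lost without female library 2, without any 1 male library and with the wild-type libraries alone (edgeR adjusted p 0.053).

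The female-biased fat body gene fit had 223, 23 and 19 counts in females and 3, 11 and 4 in males. Its log2 difference of -3.97 (SE 1.30, edgeR adjusted p 0.138) did not pass and was -2.05 without female library 1. DESeq2 called it (adjusted p 0.00485). The male-biased feeding and courtship gene takeout (to) stood at 29.9 ± 14.5 CPM in females and 22.9 ± 9.24 in males (SD, n = 3), with overlapping groups. Among 6 larval serum and fat body proteins, 2 were lower in males, both stable. Lsp1alpha, an X-linked larval storage protein gene, had 999, 1752 and 1262 counts in females and 401, 623 and 678 in males (log2 difference -1.44, SE 0.21, edgeR adjusted p 0.00396). Lsp1gamma had 2305, 3059 and 2936 counts in females and 1249, 1574 and 1931 in males (log2 difference -1.01, SE 0.16, edgeR adjusted p 0.00587). In pooled heads, fewer cells of a type and less RNA per cell cannot be told apart, here and in the results that follow.

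**Figure D2:**
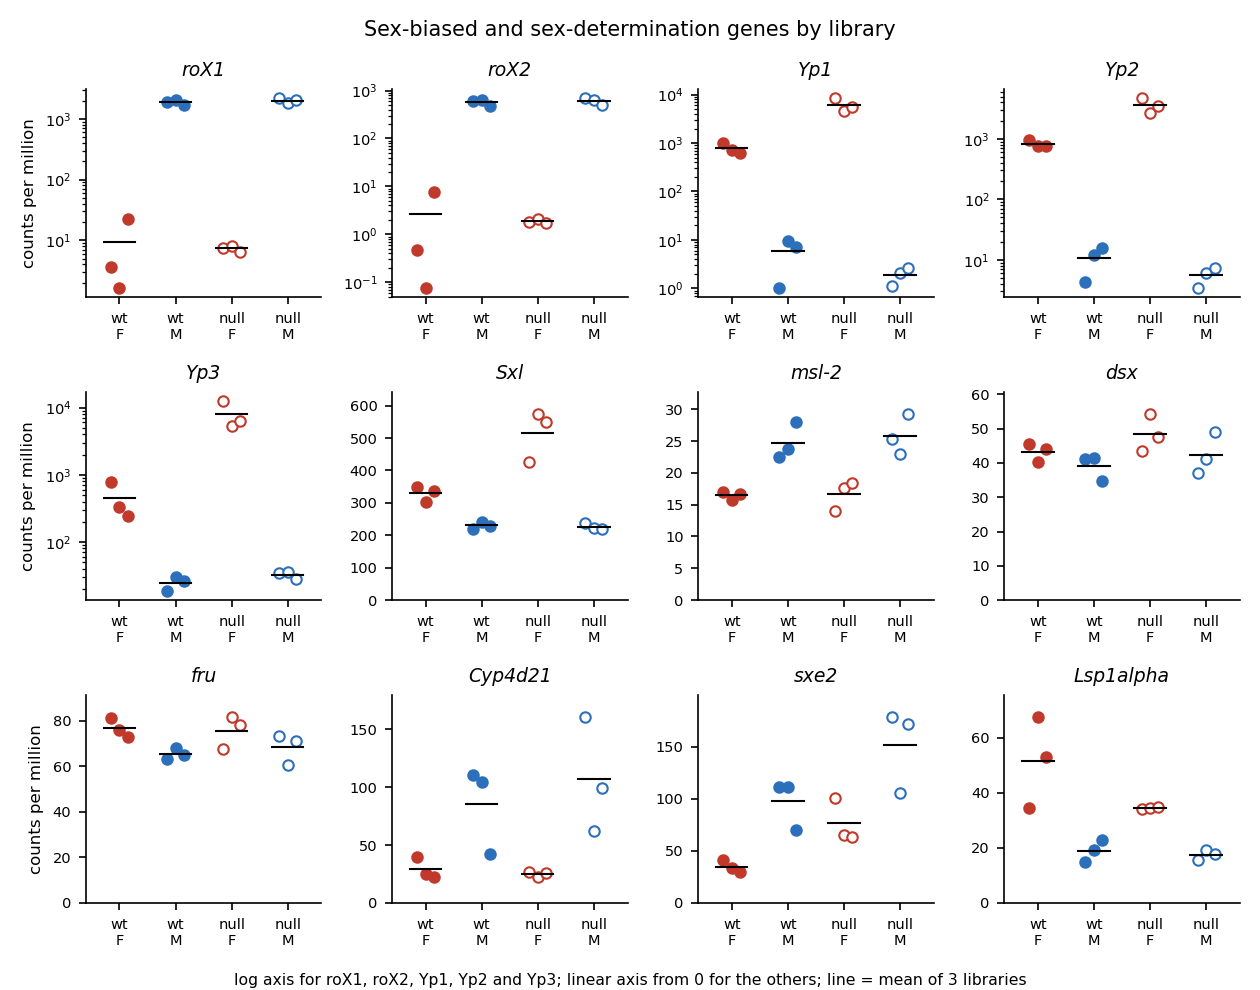
Level of 12 genes in each library (CPM, y axis; log axis for roX1, roX2 and the Yp genes, linear axes from 0 for the others) in wild-type (wt, filled) and Nab2 null (open) females (F, red) and males (M, blue). Points are libraries 1 to 3 from left to right and lines are group means; female library 3 is high for both roX RNAs, and dsx and fru were not called.

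A larger share of genes was called on the X chromosome than on the autosomes, while the medians of both lay near 0. Of 1791 X-linked genes tested, 145 were called (8.10%), 59 higher and 86 lower in males. On the 4 large autosomal arms 231 of 9283 were called (2.49%), 86 higher and 145 lower. The share of calls was higher on X under every alternative fit of the comparison, although under total-count scaling its split was 66 higher and 66 lower. The median log2 difference was 0.01 on X and -0.01 on the autosomes, 0.0133 apart. Leaving out male library 3 turned the sign of that gap, to -0.0039. Setting each library against the mean of the other sex gave gaps from -0.0030 to 0.0115 (SD 0.0055 over the 6 libraries), so positive and negative gaps both occurred among single libraries. These gaps came from CPM ratios of genes with counts in all 6 libraries, and libraries of the same sex shared their reference mean. Their SD is therefore not the spread of the fitted gap, which lay above all 6 values. The quartiles of X-linked genes were -0.18 and 0.17, and those of autosomal genes -0.14 and 0.13.

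**Figure D3:**
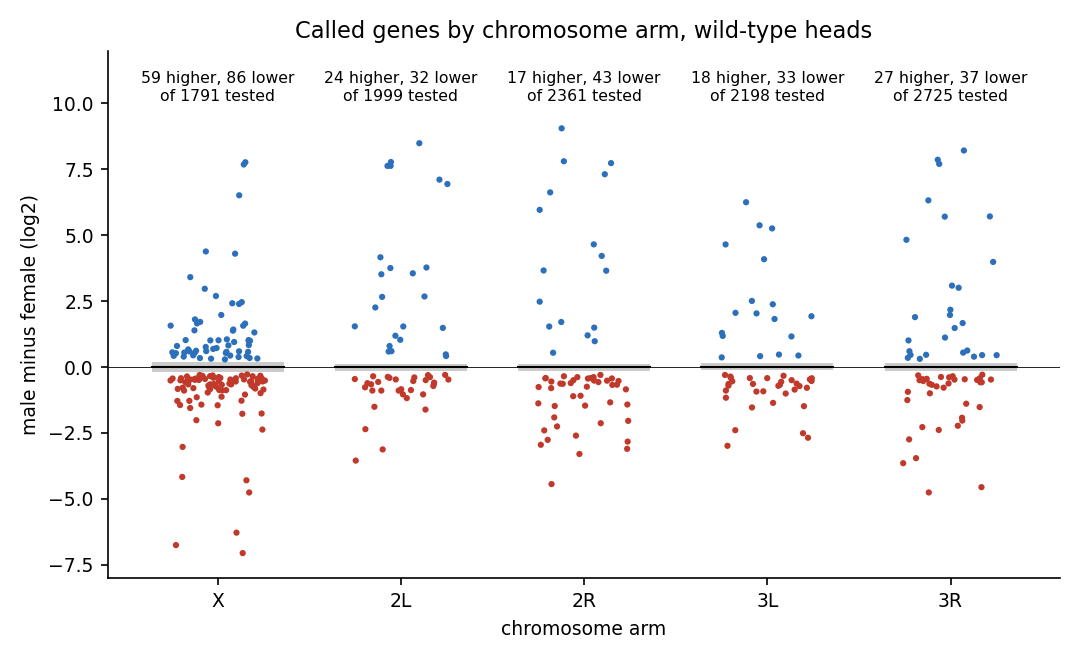
Fitted difference of males minus females (log2, y axis) for the genes called on each large chromosome arm (x axis). Points are called genes, blue where higher and red where lower in males; the black line and grey band give the median and the quartiles of all genes tested on the arm, which sit near 0 on all 5 arms.

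X-linked genes called at least 2-fold higher in males had median ratios of 0.94 for male library 2 over 1 and 0.86 for 3 over 1. Of these 27 genes, 16 were lowest in male library 3. The gene brv3, of the brivido family of TRP-type ion channels, lies at chrX:2622069-2624575 (minus strand). It had 6, 4 and 4 counts in females and 112, 117 and 109 in males, a log2 difference of 4.38 (SE 0.29, edgeR adjusted p 2.82e-05). It overlaps Seipin on the opposite strand, which stood at 11.5 ± 1.01 CPM in females and 13.1 ± 1.08 in males (SD, n = 3) and was not called. The genes named in the rest of this paragraph and the next, apart from Cyp4d14 and Cyp4ae1, were chosen after their values were seen. CR32553, a noncoding RNA gene at chrX:18124575-18127027, had 96, 81 and 101 counts in females and 650, 733 and 664 in males (log2 difference 2.69, SE 0.23, edgeR adjusted p 1.14e-04). Some of these genes have known roles in oogenesis or meiosis. fs(1)Yb, which acts in the piRNA pathway of ovarian somatic cells, had 5, 5 and 4 counts in females and 42, 48 and 37 in males (log2 difference 2.97, SE 0.22, edgeR adjusted p 4.67e-05). fs(1)Ya, which encodes a nuclear envelope protein of the early embryo, had 0 counts in females and 14, 12 and 12 in males, at least 3.74-fold higher against a floor of 3 counts per female library. vilya, a meiotic crossover factor gene, had 1, 2 and 1 counts in females and 23, 20 and 9 in males. These 3 genes adjoin each other on the plus strand, fs(1)Yb at chrX:2720468-2724158, fs(1)Ya at chrX:2724286-2726577 and vilya at chrX:2726678-2727568. mh (maternal haploid) had 28, 29 and 13 counts in females against 78, 95 and 76 in males, a log2 difference of 1.65 (SE 0.28, edgeR adjusted p 0.00707).

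At higher levels, Cbs, which encodes cystathionine beta-synthase, a sulfur amino acid enzyme, stood at 17.0 ± 1.91 CPM in females and 34.4 ± 2.95 in males (SD, n = 3). CG7860 stood at 8.47 ± 0.126 and 25.1 ± 1.63 CPM (SD, n = 3). Both were stable calls, with log2 differences of 1.02 and 1.57. Neighbouring cytochrome P450 genes also rose. Cyp4d14 (chrX:2173415-2175315) had 13, 12 and 9 counts in females and 49, 40 and 37 in males, a log2 difference of 1.71 (SE 0.27, edgeR adjusted p 0.00587). Cyp4ae1 (chrX:2179007-2180998) had 205, 247 and 204 counts in females and 403, 451 and 410 in males, a log2 difference of 0.76 (SE 0.12, edgeR adjusted p 0.00635). The antisense genes that overlap them, CR45479 and CR44690, were higher in males by 1.57 and 0.56, the latter call being lost without any 1 of the wild-type libraries. CR45479 overlaps Cyp4d14 and CR44690 overlaps Cyp4ae1 on opposite strands, so their reads cannot be told apart either. Over all 86 cytochrome P450 genes listed, 77 were tested, 3 were higher and 1 lower in males, and the median was -0.11 against -0.01 for all genes tested.

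X-linked genes lower in males were more numerous and mostly changed by less than 2-fold. The pigmentation gene yellow (y), needed for black cuticle pigment, had 228, 197 and 190 counts in females and 52, 56 and 50 in males. Its log2 difference was -2.14 (SE 0.16, edgeR adjusted p 4.79e-05). tw (twisted), a protein O-mannosyltransferase gene chosen after its values were seen, had 643, 569 and 564 counts in females and 280, 312 and 232 in males, a log2 difference of -1.29 (SE 0.14, edgeR adjusted p 5.37e-04). CG1561, at chrX:11581957-11584175 next to roX2, was the most abundant gene called lower on X, at 2721 ± 281 CPM in females and 1503 ± 35.3 in males (SD, n = 3). Its log2 difference was -0.86 (SE 0.09, edgeR adjusted p 5.97e-04). Further X-linked enzyme genes with stable calls, chosen after their values were seen, were ras, Sptr and su(r). The log2 differences were -0.55 for ras (IMP dehydrogenase), -0.51 for Sptr (sepiapterin reductase, which acts in pteridine synthesis) and -0.55 for su(r) (dihydropyrimidine dehydrogenase), with SE from 0.08 to 0.09 and edgeR adjusted p from 0.00329 to 0.0081.

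Genes of testis and sperm were a further group higher in males, at low levels. Of 28 genes listed, 14 passed the filter and 12 of those were called, none lower. Of the 28, 11 had 0 counts in all wild-type female libraries, and so did 2 of the 14 tested. Those 2 passed the filter without the wild-type female libraries. Passing can have depended on the male libraries for others with few female counts too. The summed level of all 28 was 9.15, 9.13 and 10.8 CPM in females and 43.8, 61.7 and 24.9 in males. Male library 2 was highest and male library 3 lowest, and the groups did not overlap. Sperm leucyl aminopeptidases were the main members: S-Lap1 had 38, 40 and 40 counts in females and 164, 301 and 102 in males (log2 difference 2.06, SE 0.35, edgeR adjusted p 0.00752). S-Lap4 had 25, 23 and 20 counts in females and 115, 216 and 77 in males (log2 difference 2.38, SE 0.36, edgeR adjusted p 0.00472). loopin-1, of the same enzyme family, had 3, 5 and 9 counts in females and 106, 197 and 70 in males (log2 difference 4.22, SE 0.59, edgeR adjusted p 0.00285).

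S-Lap8 had 0 counts in females and 70, 128 and 29 in males, at least 21.7-fold higher (at least 15.4-fold without male library 2). Its call was lost without female library 1, 2 or 3 or male library 1 or 2 (edgeR adjusted p from 0.0597 to 0.0727). ocn, a sperm protein gene, had 0 counts in females and 29, 41 and 18 in males, at least 8.52-fold higher, and was a stable call. Mst84Db and Mst87F, which encode sperm tail proteins, had at most 5 counts in any female library and between 16 and 67 in males. The Mst87F call was lost without female library 3 (edgeR adjusted p 0.0539). S-Lap7, at 1.61, and mia, at 0.10, were tested and not called. Without female library 1, 2 or 3 the calls numbered 7, 7 and 6 of 20 tested, without male library 1 or 2 they were 8 of 14, and without male library 3 they were 17 of 20. The median of the 14 was 3.65, and 3.09 with the genes at 0 in females set to their bounds. The genes on the Y chromosome, which are transcribed in spermatocytes, were nearly silent. All 12 listed failed the filter, with 0, 1 and 2 counts in all in the female libraries and 30, 45 and 25 in the males.

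The same library order held among the wider set of autosomal genes called at least 2-fold higher in males. The wider set includes testis and sperm genes given above, and was not counted without them. Of these 65 genes, 52 were highest in male library 2 and 54 lowest in male library 3. Of the 27 such genes on X, 8 were highest in male library 2 and 16 lowest in male library 3. The autosomal set included CG3213, with 0 counts in females and 41, 94 and 19 in males, at least 14.6-fold higher (9.33-fold without male library 2). CG33340 had 0 counts in females and 31, 76 and 20 in males, at least 12.1-fold higher (7.88-fold without male library 2). CG4836 had 2, 2 and 1 counts in females and 148, 268 and 77 in males, a log2 difference of 6.32 (SE 0.86, edgeR adjusted p 0.00264). In all, 13 of the 65 had 0 counts in all females. The fitted median of the 65 was 3.55, and 3.01 with those 13 set to their bounds. Genes with known roles in the germline were among them, chosen after their values were seen: exu, an mRNA localisation factor, rose by 1.49 and Pen, an importin alpha, by 2.66, the latter call being lost without female library 1, 2 or 3 or male library 1 or 2. The exu call was lost without female library 2 or 3. The share of these values that moved with differences between the male pools was not tested further. Of 13 male accessory gland genes 1 was tested and not called, and of 21 ovary and egg genes 2 were tested and not called.

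**Figure D4:**
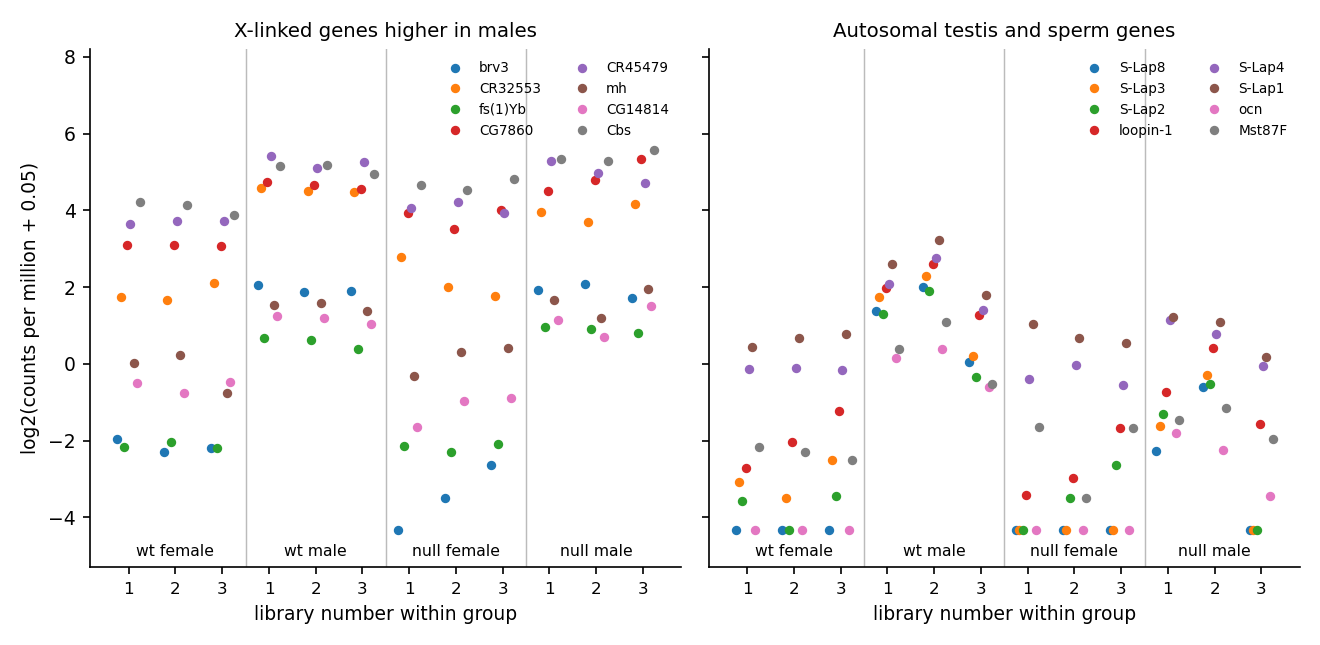
Level in each library (log2 of CPM + 0.05, y axis) of 8 X-linked genes higher in males (left) and 8 autosomal testis and sperm genes (right). Columns are libraries 1 to 3 of each group and colours are genes. The X-linked genes drawn are nearly level over the wild-type male libraries. The testis and sperm genes are highest in male library 2, lowest in male library 3 and lower again in Nab2 null males. The genes drawn were picked from larger sets. Of 27 X-linked genes called at least 2-fold higher in males, 16 were lowest in male library 3.

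A few autosomal genes of other kinds were higher in males and stable. Idgf3, a chitinase-like growth factor chosen after its values were seen, had 427, 353 and 398 counts in females and 983, 1117 and 944 in males (log2 difference 1.19, SE 0.11, edgeR adjusted p 2.46e-04). FASN2, a fatty acid synthase gene from the list for cuticular hydrocarbon synthesis, had 346, 306 and 327 counts in females and 656, 832 and 794 in males (log2 difference 1.03, SE 0.15, edgeR adjusted p 0.00329). FASN3, of the same family, went the other way, at 7.27 ± 1.00 CPM in females and 4.01 ± 1.00 in males (SD, n = 3). Its call (log2 difference -0.86, edgeR adjusted p 0.0384) was lost without any 1 wild-type library other than male library 2, and under total-count scaling (edgeR adjusted p 0.0636). Of 13 genes listed for this pathway 10 were tested, and these were the only calls.

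The autosomal genes with a strong female bias included chitinase genes, a lectin gene and genes of unknown function. CG31077 had 553, 341 and 614 counts in females and 24, 34 and 79 in males, a log2 difference of -3.65 (SE 0.36, edgeR adjusted p 3.28e-04; -4.31 without male library 3). CG14645 had 294, 97 and 248 counts in females and 17, 13 and 35 in males (log2 difference -3.46, SE 0.42, edgeR adjusted p 0.00124). The chitinase gene Cht4 had 77, 27 and 56 counts in females against 4, 10 and 4 in males. Cht8, another chitinase gene chosen after its values were seen, had 134, 67 and 176 against 11, 29 and 21. The C-type lectin gene lectin-37Da had 55, 19 and 44 counts in females against 1, 3 and 7 in males. Female library 2 was the lowest female for all 5 genes, and no male library reached it. These calls were stable. Genes of cuticle proteins as a family did not follow: of 70 CPR cuticle protein genes 38 were tested, Cpr56F alone was called, and the median was -0.03. The Cpr56F call (log2 difference -1.42, edgeR adjusted p 0.0300) was lost without female library 2 or 3 or male library 1 or 2.

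Immune and blood cell genes gave few calls, but most had values below 0. PPO1, the prophenoloxidase of crystal cells that drives melanisation, had 167, 174 and 168 counts in females and 26, 32 and 27 in males. The log2 difference was -2.76 (SE 0.25, edgeR adjusted p 1.82e-04), a stable call. Of 10 hemocyte genes 9 were tested, and PPO1 and the phagocytosis receptor gene NimC1 were called, both lower. Of the 9, 7 had a value below 0, with a median of -0.46. Among all genes tested, 5740 of 11223 had a value below 0, with a median of -0.01. NimC1 stood at 56.3 ± 3.67 CPM in females and 41.0 ± 2.20 in males (SD, n = 3), a call lost without any 1 wild-type library and with the stricter filter (edgeR adjusted p 0.0528). PPO2, the other crystal cell enzyme gene on the list, was not called, at -0.47, nor was the plasmatocyte gene Hml, at -0.65. Among 18 antimicrobial peptide genes tested, AttD, an attacin gene, had 373, 256 and 297 counts in females and 63, 125 and 90 in males (log2 difference -1.93, SE 0.27, edgeR adjusted p 0.00285). No other was called, 13 of the 18 had a value below 0, and their median was -0.52.

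Small nucleolar RNAs (snoRNAs), which guide modification of ribosomal RNA, leaned towards females. Of 207 snoRNA genes tested that matched the annotation 9 were called (4.35%, against 3.37% of all genes), all lower in males, and 176 had a fitted value below 0. Their median was -0.27, against -0.01 for all genes tested. A value of -0.5 or below was found for 33.8% of snoRNA genes and 5.62% of all genes, and none of the 207 reached 0.5. A further 6 snoRNA genes had no annotation match, of which 1 was called lower and 2 reached 0.5. Transfer RNA genes leaned alike: of 59 tested 1 was called, lower in males, with a median of -0.26, 27.1% at -0.5 or below and none at 0.5. The median stayed negative under each scaling, at -0.22 with total counts. The stable calls among the 207, chosen after their values were seen, were Me28S-G2017, with 61, 84 and 104 counts in females and 14, 24 and 21 in males, Psi28S-1232 with 28, 42 and 33 against 12, 12 and 10, and Me28S-A2113 with 59, 60 and 55 against 30, 35 and 22. These 3 lie within ribosomal protein genes on the same strand (RpL3, RpL17 and RpL30), so the division of reads with the host genes is uncertain. Me28S-U1688, the unmatched gene that was called, was stable too, with 23, 25 and 25 counts in females and 8, 10 and 8 in males. The ribosomal protein genes themselves shifted less: of 84 tested 1 was called lower, 69 were below 0, and the median was -0.14 (-0.09 under total-count scaling). The call, RpLP0-like, was lost without any 1 wild-type library other than female library 2, and under total-count scaling.

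Genes for proteins that bind snoRNAs also had values below 0. Their list was put together after nop5 and Nop56 had been seen among the calls, and its called genes were named after their values were seen. The count, median and summed level of the list are therefore descriptions, and no test of the snoRNA values. All 9 listed genes were tested and 7 were lower in males, with a median of -0.68. Without single wild-type libraries between 3 and 7 were called. nop5 (the fly Nop58) and Nop56 are core proteins of box C/D particles, which guide methylation. nop5 had 1646, 1389 and 1304 counts in females and 790, 904 and 943 in males (log2 difference -0.89, SE 0.12, edgeR adjusted p 0.00285). Nop56 had 1297, 1089 and 1056 counts in females and 724, 884 and 834 in males (log2 difference -0.68, SE 0.11, edgeR adjusted p 0.00516). The methyltransferase gene Fib was lower by -0.68 and the pseudouridine synthase gene Nop60B by -0.76, with calls lost without several single libraries. The nucleolar chaperone gene Nopp140 fell by 0.56 and was a stable call. CG7637, which encodes Nop10, and CG4038, which encodes Gar1, were not called, at -0.41 and -0.04. The summed level of the 9 genes was 264, 238 and 249 CPM in females and 152, 149 and 162 in males, with no overlap. Of all genes tested, taken singly, 30.4% had no overlap.

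Among heat shock genes Hsp83, the fly HSP90 chaperone gene, fell in males. It had 68822, 59094 and 48939 counts in females and 33648, 41082 and 40868 in males, or 2234 ± 159 and 1294 ± 75.0 CPM (SD, n = 3 each). The log2 difference was -0.79 (SE 0.12, edgeR adjusted p 0.00458), and the call was stable. Of 18 heat shock genes listed 16 were tested, 14 had a value below 0 and the median was -0.76, but no other passed. Among all 11223 genes tested, 5740 had a value below 0, with a median of -0.01. In the Nab2 null the median of the list was -0.09, against -0.06 for all genes tested. DESeq2 called 6 lower. Hsp68 was at -0.88 (edgeR adjusted p 0.0574) and Hsp70Bc at -0.98 (edgeR adjusted p 0.0786). Hsp70 genes are near-identical copies, so the division of reads among them is uncertain and they do not count as separate genes among the 14.

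Genes of a flight and thoracic muscle list leaned towards females. Of 13 listed all were tested and 12 had a value below 0, with a median of -0.42, and 2 were called. Of all 11223 genes tested, 5740 had a value below 0, with a median of -0.01, and 3.37% were called. Mlc2, a myosin light chain gene, stood at 6247 ± 383 CPM in females and 4445 ± 491 in males (SD, n = 3), a log2 difference of -0.49 (SE 0.12, edgeR adjusted p 0.0416). Mf, the myofilin gene of thick filaments, had a log2 difference of -0.48 (SE 0.11, edgeR adjusted p 0.0386). Both calls were lost without any 1 wild-type library other than male library 3, and the Mf call under total-count scaling. The summed level of the 13 genes was 19654, 22612 and 21550 CPM in females and 15146, 15097 and 17122 in males. Mhc and Mlc2 were the most abundant members, with mean counts of 191547 and 147791. Act88F, fln and TpnC4 had mean counts of 115, 21.2 and 13.5 and wide SE of 0.94, 1.40 and 0.80, and Act79B was at 0.30. Whether the lean belongs to flight muscle or to other muscle in the heads was not tested. Further genes lower in males with stable calls, chosen after their values were seen, were rost (rolling stone, known from myoblast fusion) at -1.51, the unconventional myosin gene Myo61F at -1.17, the antiviral gene pst (pastrel) at -0.93, the collagen-modifying enzyme gene Plod at -0.89, the basement membrane gene Ndg (nidogen) at -0.85 and srl (spargel, the fly PGC-1) at -0.74.

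None of 14 neuron, 9 glia or 18 photoreceptor genes was called. The neuron genes had a median of 0.20 with 12 above 0, but this was 0.05 without male library 3, in which their summed level was 6010 CPM against 4535 to 5124 in the other wild-type libraries. None of 35 neuropeptide and hormone genes, 13 pheromone-sensing genes, 14 gustatory receptors or 22 ionotropic receptors tested was called. Of 33 odorant receptor genes tested 29 had a value below 0, with a median of -0.60. Or85a alone was called, at 29, 11 and 9 counts in females and 4, 3 and 6 in males, and that call was lost without any 1 wild-type library, with DESeq2 and with the wild-type libraries alone. The odorant receptor median was -0.24 without female library 1, whose summed level was 138 CPM against 58.4 to 94.7 in the other 5 libraries. Of 34 odorant-binding protein genes tested, Obp99a alone was called. Of 12 cuticle tanning genes tested 2 were lower in males, y and yellow-f, and of 7 gut and digestive enzyme genes LysX was lower. The yellow-f call (edgeR adjusted p from 0.0535 to 0.126) and the LysX call (edgeR adjusted p from 0.0673 to 0.170) were each lost without any 1 wild-type library, and the LysX call also without null female library 3 or null male library 2. No call was made among 31 glutathione S-transferase, 13 UDP-glycosyltransferase or 5 Turandot genes tested.

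The authors' deposited table gives its own DESeq2 comparison of the same groups. It lists 765 genes at an adjusted p under 0.05, 384 higher in males and 381 higher in females. Of the 378 genes called here, 367 are in it with the same direction, which is 97.1% of the calls here and 48.0% of the calls in the authors' deposited table. No p-value is given for roX2 in the authors' deposited table.

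The Nab2 null heads gave the sex comparison again in flies of another genotype. The 2 comparisons share no library, but they share the count filter, the scaling and the estimate of spread. There 3265 of 11223 genes (29.1%) were called between the sexes, 1471 higher (13.1%) and 1794 lower (16.0%). Of the 378 genes called in wild type, 360 had the same direction in the null (95.2%, exact 95% binomial interval 92.6% to 97.2% over genes, which are not independent), against 71.2% of all genes tested. In the null 246 of the 378 were called in the same direction (65.1%), and none in the opposite direction. Of X-linked genes 51 of 59 that were higher in males and 75 of 86 that were lower were called again. Of autosomal genes the same held for 93 of 145 that were lower and for 27 of 86 that were higher. Called or not, the direction was the same in the null for 80 of these 86 and for 56 of the 59 on X.

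**Figure D5:**
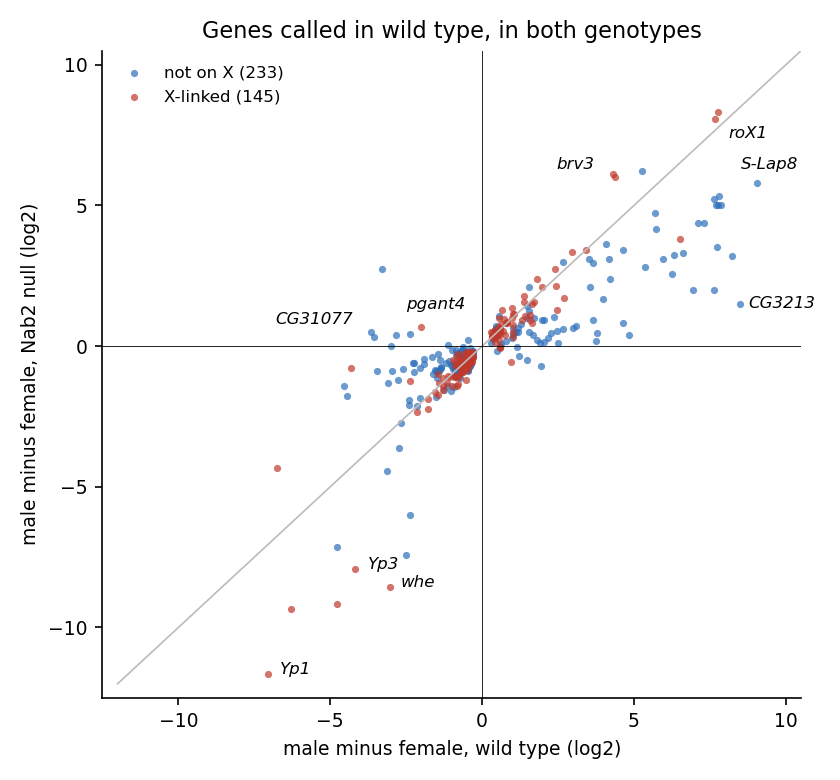
Difference of males minus females in wild type (log2, x axis) against that in Nab2 null heads (log2, y axis) for the 378 genes called in wild type, coloured by location. The grey line marks equal values; the yolk protein genes lie below it, and many autosomal genes with high values in wild type lie well below it on the right.

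For brv3 the null females had 0, 1 and 3 counts and the null males 96, 103 and 78, a log2 difference of 6.01 (SE 0.36, edgeR adjusted p 4.74e-06) against 4.38 in wild type. The difference between these brv3 values did not pass (edgeR adjusted p 0.427). For y the null values were 143, 121 and 160 in females and 22, 27 and 34 in males, a log2 difference of -2.34 (SE 0.18, edgeR adjusted p 3.38e-05). The testis and sperm genes had a summed level of 14.0, 16.6 and 7.42 CPM in null males and 7.75 to 8.67 in null females, and the groups overlapped. Of those 65 autosomal genes with a male bias of 2-fold or more, 12 were called higher in null males, against 24 of 27 on X. The median log2 difference in the null was 1.26 for the 65 and 1.59 for the 27, against 3.55 and 1.71 in wild type. Many of the 65 have few counts, so the calls do not show how many lost their male bias. The yolk protein genes had larger values in the null, with higher levels in null females. Yp1 stood at 6199 ± 1949 CPM (SD, n = 3) in null females and 1.91 ± 0.747 (SD, n = 3) in null males. Its sex difference was -11.67 in the null, and the difference between genotypes of 4.60 (SE 0.77, edgeR adjusted p 0.184) did not pass. CG31077, Cht4 and CG14645 were nearly absent from the null, with at most 14, 1 and 2 counts in any null library. Of the 72 genes whose female bias was 2-fold or more, 12 had a null female level under 20% of that in wild-type females. These 72 were picked for a high level in wild-type females, and the same share over all genes tested was not counted. So the 12 are a description and no result about these genes.

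The test of the difference between the 2 sex effects over all 11223 genes called 1 gene (0.00891%), pgant4, while 1297 had an unadjusted edgeR p under 0.05. DESeq2 called 8 genes. The pgant4 gene encodes an enzyme that starts O-linked glycosylation. No other unequal value given above for the genotypes passed this test.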

How the data were processed

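Gene counts of 12 libraries were used as the authors deposited them, 1 table of raw counts per library. Per the submitters' processing notes, STAR 2.5.2b-0, featureCounts 1.6.0.3 and DESeq2 2.11.40.1 were used with the build BDGP6. The strand setting is not given in the sources used here. Log2 fold changes and p-values from DESeq2 were deposited by the authors in a further table, in which the log2 values are female over male. They were used only for the overlap of calls.

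All values other than those were computed here in R 4.3.3 with edgeR 4.0.16. Libraries were scaled by TMM, genes were kept by filterByExpr, and 11223 of 17737 passed. One quasi-likelihood model with a mean for each of the 4 groups was fitted to the 12 libraries, with a prior count of 0.125 and Benjamini-Hochberg adjustment over all genes tested. Male minus female differences are log2 values, and SE is the difference divided by the square root of F. CPM uses TMM-scaled library sizes. Folds against a group at 0 use a floor of 3 counts per library and cover counting error only. Names were matched to the Ensembl annotation of BDGP6.54 for 99.5% of the gene names.

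The labels call the replicates biological, with 3 per group. Members and gene lists were chosen with earlier results of these data known. Genes were named by rank of difference (up to 12 per direction with a mean of at least 20 counts), by abundance (5 per direction), by rank on X (5) and as called members of the lists; other genes are marked. Alternatives were RLE and total-count scaling, no filter, a filter of 50 counts in 3 libraries, DESeq2 1.42.0, the wild-type libraries alone, a replicate block, and leaving out each library, of which leaving out null libraries was added after the data were seen. The scripts were tested on simulated data.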

Additional observations from a re-analysis of the deposited data

Results flagged for a closer look

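The sex difference of pgant4, which encodes a polypeptide N-acetylgalactosaminyltransferase, differed between genotypes. The gene had 27, 38 and 31 counts in wild-type females and 6, 7 and 8 in wild-type males, with no overlap. In the null it had 12, 14 and 17 counts in females and 20, 18 and 19 in males. The male minus female difference was -2.36 in wild type (SE 0.25, edgeR adjusted p 5.37e-04) and 0.42 in the null (SE 0.24, edgeR adjusted p 0.249). The test of the difference between them gave -2.78 on the log2 scale (edgeR adjusted p 0.0483). Of the fits that left out 1 library, the one without wild-type female library 1 kept this call (edgeR adjusted p 0.0137). Without any other single library, null libraries included, the pgant4 value for the difference between genotypes lay between -2.89 and -2.63 with edgeR adjusted p from 0.0679 to 0.310.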

How the results depend on the processing

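The number of genes differing between wild-type males and females was 378 and the number higher in males 146. With no low-count filter 277 were higher, and with the stricter filter 77. DESeq2 gave 669 genes (298 higher, 371 lower) and the wild-type libraries alone gave 671 (290 higher, 381 lower). Leaving out 1 library at a time, null libraries included, gave from 149 to 848 genes, from 70 to 381 higher and from 74 to 467 lower. In the same fits the X chromosome median minus autosome median ranged from -0.0039 to 0.0184, and the share of called genes with the same direction in the null from 91.17% to 95.65% (96.08% with RLE scaling). Total-count scaling moved the median of all genes tested to 0.04 and the split of calls to 164 higher and 176 lower. The count of genes whose sex difference differed by genotype was 1 in the main analysis. It was 2 with no filter, 8 with DESeq2, 0 with the replicate block and from 0 to 3 with 1 library left out, 3 being without wild-type female library 1. No named gene value that was called in the main analysis changed sign under the alternatives run. Of values not called, the X gap and tra (-0.06) turned sign without male library 3, and to (0.06) without female library 1. Calls higher in males outnumbered those lower without male library 3 (231 and 202), without male library 1 (79 and 74) and with no filter (277 and 255). Leaving out single null libraries also ended the calls of Cyp4d21, Mlc2, NimC1 and Or85a, with edgeR adjusted p from 0.0510 to 0.0588. The replicate block gave 452 genes (175 higher, 277 lower). With the block 4 of the 147 named values lost their call, among them FASN3 (edgeR adjusted p 0.0553) and NimC1 (edgeR adjusted p 0.0567), and fit gained one (edgeR adjusted p 0.0195). Same-numbered male and female libraries had correlations of their deviations of 0.27, -0.15 and 0.26, and libraries 1 and 3, but not 2, matched their own number best, so the numbers were not taken to pair samples. Between 21 and 52 of 147 named values lost their call without 1 wild-type library. The 147 include genes not called in the main analysis, such as Nab2, tra and dsx, which had no call to lose. Of the 28 testis and sperm genes 14 were below the count filter and were not tested, and with no filter 18 of the 28 were called.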
